A study of Mus musculus with 6 samples.

Results

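The 9 genes described here form the core of the p53 circuit and of the BCL2 family that sets the threshold for mitochondrial cell death. They were chosen by symbol from the 54532 genes of the deposited mouse heart table, and comprise Trp53, Mdm2, Cdkn1a, Bax, Bbc3, Bcl2, Bcl2l1, Bcl2l11 and Mcl1. All 9 were present once in the table and all had a mean above the filter of 0.5 FPKM (fragments per kilobase of gene length, scaled to the size of the library) in each group.

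The RNA came from the hearts of 6 mice, 3 in each group, taken 12 weeks after tamoxifen. Both groups carried loxP-flanked Mrps5 alleles (Mrps5 fl/fl), and both were injected with tamoxifen for 5 days at 45 mg/kg/day when 8 weeks old. The 3 conditional knockout (cKO) mice also carried MCM, the tamoxifen-inducible MerCreMer recombinase under the αMHC promoter, which is active in cardiomyocytes, whereas the 3 control (Ctrl) mice carried no MCM. Because Ctrl hearts lacked the recombinase, its presence and the loss of Mrps5 cannot be told apart in this comparison. Mrps5 encodes a component of the small mitochondrial ribosomal subunit, and the comparison asks what its loss from adult cardiomyocytes does to the heart.

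As background, p53 (encoded by Trp53) is a transcription factor held at low levels by the ubiquitin ligase MDM2, and its activity is set mainly through protein stability rather than through its mRNA. When stabilised, it activates genes of cell cycle arrest such as Cdkn1a and genes of cell death such as Bax and Bbc3. The BCL2 family acts at the outer mitochondrial membrane: effectors (BAX, BAK) open it, survival members (BCL2, BCL-xL, MCL1) restrain the effectors, and BH3-only proteins (PUMA, BIM and others) engage the survival members or the effectors. Adult cardiomyocytes rarely divide and depend on MCL1 and BCL-xL for survival.

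The stretches before the transcription starts are shown because p53 is known to bind near some of these genes. Windows of 300 bases around RefSeq starts (250 before and 50 after, GRCm38.p6) were available for all 9 genes, 15 windows in all. They were searched on both strands for the p53 decamer, the 10-base motif that occurs as a pair in a full p53 response element, for the E-box CACGTG, and for TGATGNAA, the motif of ATF4 with C/EBP partners. Matches may overlap, and positions count from the start, with -1 the base before it. Capitals mark exact decamer matches in Cdkn1a, Mdm2 and Trp53, a decamer followed by an E-box in Bax, and an E-box in Bbc3.
Cdkn1a, chr17:29090729-29090968, plus strand: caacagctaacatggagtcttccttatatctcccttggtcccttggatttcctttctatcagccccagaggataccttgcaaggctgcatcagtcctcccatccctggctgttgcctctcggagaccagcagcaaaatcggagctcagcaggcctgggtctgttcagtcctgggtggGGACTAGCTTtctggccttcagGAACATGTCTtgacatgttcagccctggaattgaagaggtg
Bax, chr7:45466899-45467148, minus strand: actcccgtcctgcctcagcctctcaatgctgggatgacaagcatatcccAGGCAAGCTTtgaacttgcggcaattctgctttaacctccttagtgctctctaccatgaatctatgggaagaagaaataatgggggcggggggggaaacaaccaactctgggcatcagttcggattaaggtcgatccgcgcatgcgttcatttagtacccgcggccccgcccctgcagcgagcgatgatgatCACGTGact
Mdm2, chr10:117710925-117710954, minus strand: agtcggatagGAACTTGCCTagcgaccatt
Trp53, chr11:69580274-69580303, plus strand: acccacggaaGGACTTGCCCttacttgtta
Bbc3, chr7:16310355-16310384, plus strand: gcggggcgggcgCACGTGgcggcgtcgagg

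An exact p53 decamer was found in 4 of the 15 windows, 1 each of Trp53, Mdm2, Cdkn1a and Bax, against 8.36% of all 32851 windows. Cdkn1a held 2 matches, beginning at -73 and -51. In the 10 bases right after the match at -51, 9 positions also followed the decamer, the most for the bases directly before or after any of the 5 exact matches. Spaced or imperfect pairs were not searched. That site lay 2841 bases upstream of the other RefSeq start of Cdkn1a. The matches began at -201 in Bax, -186 in Mdm2 and -75 in Trp53. CACGTG was found in 3 of the 15 windows (7.15% of all windows), in Trp53, Bax and Bbc3, and TGATGNAA in 0 of 15 (3.97% of all windows). A match is a run of letters and not evidence of binding, and the absence of a match concerns these windows alone.

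The libraries held 15989322 to 24875499 reads assigned to genes, and the 9 genes were covered by 59 to 6425 reads per heart. The library size used in the FPKM values was 0.913 to 0.980 times the assigned reads in Ctrl and 1.06 times in each cKO heart. The deleted gene fell in every cKO heart: Mrps5 measured 5.20, 6.45 and 6.33 FPKM in the Ctrl hearts, against 1.12, 1.23 and 1.31 FPKM in the cKO hearts, 20.4% of the Ctrl mean (limma log2 change -1.65, SE 0.0944, adjusted p 0.000202). In cKO replicate 2 the Y-linked genes Ddx3y, Eif2s3y, Uty and Kdm5d were at 0 and Xist was at 10.7 FPKM, unlike the other 5 hearts. That is the pattern of a female heart, whereas the study reports male mice only. By this pattern sex was not balanced between the groups, and its part in the results was not tested. The summed level of 10 cardiomyocyte markers was 15615 to 19773 FPKM in Ctrl and 9574 to 16693 FPKM in cKO, with 5 of the 10 lower at the threshold, and that of 6 endothelial markers was 120 to 140 FPKM in Ctrl and 78.2 to 93.2 FPKM in cKO, with 4 of 6 lower. Atrial markers (3 genes) summed to 25.2 to 990 FPKM in Ctrl and 105 to 714 FPKM in cKO. Macrophage markers (7 genes, 1 lower) summed to 250 to 334 FPKM in Ctrl and 192 to 288 FPKM in cKO, and the 8 lymphocyte markers to at most 2.85 FPKM in any heart, with Ms4a1 at 0 in all 6. Of 8 fibroblast markers 2 were higher and 1 lower, as were 2 and 1 of 5 mural cell markers, and neither of the 2 neutrophil markers tested passed. Beside these marker counts, 16.3% of all genes tested were higher and 17% lower at the threshold, which is defined below. In whole tissue a smaller number of cells of a type and less RNA per cell cannot be told apart, and the part of cell composition in the results that follow was not tested.

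Of the 9 genes, 5 were higher in cKO hearts (Trp53, Cdkn1a, Bax, Bbc3 and Bcl2), 1 was lower (Bcl2l11), and 3 did not pass the threshold (Mdm2, Bcl2l1 and Mcl1). No other gene of the annotation overlapped Trp53, Mdm2, Bbc3, Bcl2l1, Bcl2l11 or Mcl1. The genes overlapping Bax and Bcl2 were at a mean of at most 0.00850 FPKM, and AC167363.2, opposite Cdkn1a, was at 0.4996 FPKM in Ctrl and 0.464 FPKM in cKO. The threshold was an adjusted p of 0.05 in a limma fit over all 12944 genes tested, on log2(FPKM + 1), a scale that understates changes of genes with low values. Across all genes tested 33.3% passed it, 16.3% higher and 17% lower in cKO. In FPKM the groups did not overlap for 7 of the 9 genes, and for 51.2% of all genes tested. The median log2 fold change was 0.48 over the 9 genes and -0.02 over all genes tested. The 9 genes were chosen with earlier results of these data known, so these medians only describe them. Without cKO replicate 2, the heart with Y-linked genes at 0, 5 of the 9 were higher and Bcl2l11 did not pass. Of all 12935 genes tested in that setting, 1977 were higher and 2011 lower.

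**Figure D1:**
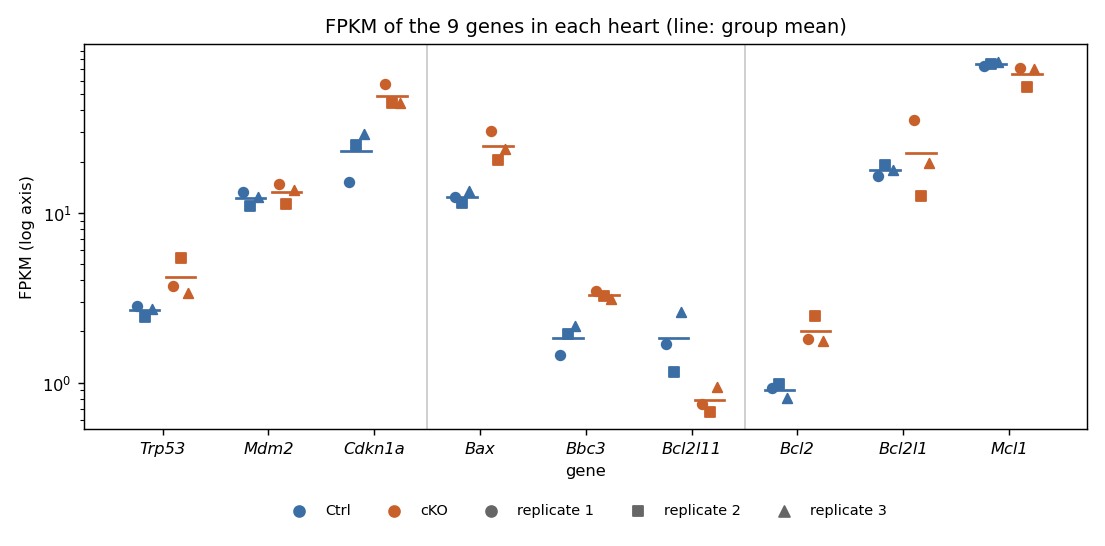
FPKM on a log axis of each of the 9 genes in every heart, with Ctrl and cKO hearts side by side, marker shape giving the replicate and a line the group mean (n = 3). Cdkn1a, Bax, Bbc3, Bcl2 and Trp53 show the cKO points above all Ctrl points, Bcl2l11 and Mcl1 show them below, and Bcl2l1 in cKO runs from 12.5 to 35.1 FPKM.

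In the p53 circuit, the transcripts of p53 itself and of its cell cycle target were higher in cKO hearts, and that of its ubiquitin ligase did not pass the threshold. Trp53 (ENSMUSG00000059552, chromosome 11, 69580359 to 69591873, plus strand) measured 2.84, 2.44 and 2.71 FPKM in the Ctrl hearts (replicates 1, 2 and 3, the order used throughout), against 3.70, 5.43 and 3.38 FPKM in the cKO hearts. All cKO hearts lay above all Ctrl hearts, and cKO replicate 2 was the highest. The means were 2.66 ± 0.206 and 4.17 ± 1.10 FPKM (SD, n = 3 each, as for every ± here), a log2 fold change of 0.48 (limma, SE 0.148, adjusted p 0.0460). This call was close to the threshold. It was lost without Ctrl replicate 1, 2 or 3 or cKO replicate 1 (adjusted p 0.0860, 0.131, 0.104 and 0.0670), and without a filter on low values (0.112). Without cKO replicate 2 the log2 fold change was 0.31 (adjusted p 0.0416).

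Mdm2 (ENSMUSG00000020184, chromosome 10, 117688875 to 117710758, minus strand), which is both the main negative regulator of p53 and a p53 target, measured 13.2, 11.03 and 12.3 FPKM in the Ctrl hearts, against 14.8, 11.3 and 13.6 FPKM in the cKO hearts. The groups overlapped, with cKO replicate 2 among the Ctrl values. The log2 fold change of 0.11 had an SE of 0.114 (limma adjusted p 0.496). The ratio of Mdm2 to Trp53 FPKM was 4.53 to 4.64 in Ctrl hearts, and it was 4.01, 2.08 and 4.03 in the cKO hearts.

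Cdkn1a (ENSMUSG00000023067, chromosome 17, 29090976 to 29100727, plus strand) encodes p21, an inhibitor of cyclin-dependent kinases and the best known p53 target. It measured 15.2, 25.1 and 28.9 FPKM in the Ctrl hearts, against 57.3, 44.1 and 44.1 FPKM in the cKO hearts. Every cKO heart was above the highest Ctrl heart, and the Ctrl hearts spread almost as widely as the cKO hearts (SD 7.09 and 7.61 FPKM). The mean rose from 23.1 to 48.5 FPKM, 2.10 times, a log2 fold change of 1.08 (limma, SE 0.233, adjusted p 0.0137). This call was kept in all 14 alternatives. Of the other inhibitors of cyclin-dependent kinases, in limma 0 of the 4 tested were higher and 3 were lower (against 16.3% and 17% of all genes), a number of genes too small to describe the group. Voom on the recovered reads also gave 0 of them higher, and all 4 log2 fold changes lay below 0. Cdkn2a and Cdkn2b were too low to test, as were all 4 markers of cycling cells. Cdkn1c (p57) fell from 7.58 ± 0.546 to 3.99 ± 0.857 FPKM and Cdkn1b (p27) from 10.8 ± 1.497 to 7.38 ± 0.489 FPKM (log2 fold changes -0.79 and -0.49, limma adjusted p 0.00628 and 0.0137). Cdkn2c was lower by a smaller margin (-0.25, adjusted p 0.0416), a call lost in 11 of 14 alternatives, leaving out any single heart among them, and Cdkn2d was at 12.9 ± 1.53 and 10.6 ± 2.00 FPKM (adjusted p 0.183).

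**Figure D2:**
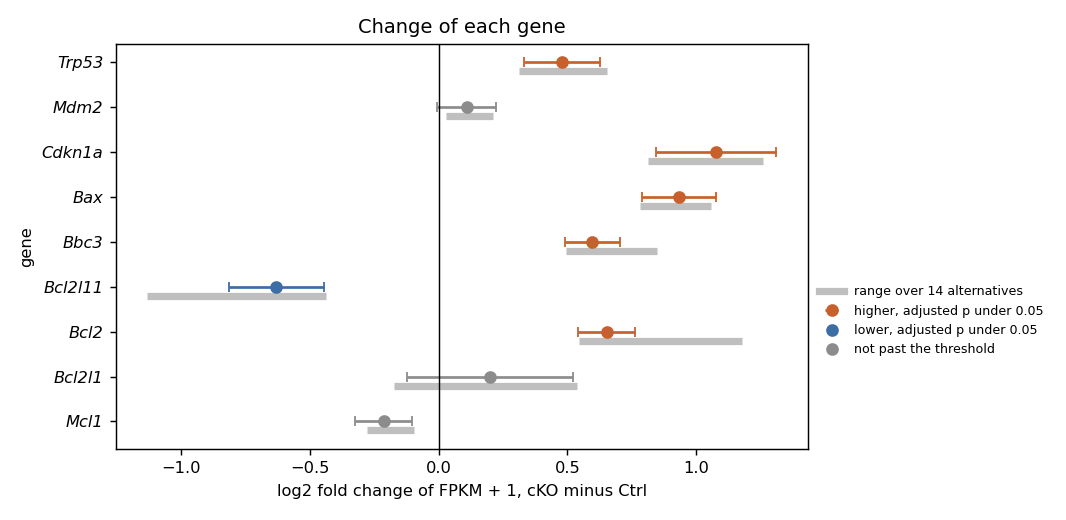
Log2 fold change of FPKM + 1 (cKO minus Ctrl, error bars SE) of the 9 genes, coloured by whether limma's adjusted p was under 0.05, with a grey bar for the range over 14 alternative analyses. The bars of Cdkn1a, Bax, Bbc3 and Bcl2 lie above 0.49, and the bar of Bcl2l1 crosses 0.

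Among the genes whose products promote death, the effector Bax and the BH3-only gene Bbc3 were higher in cKO hearts, and the BH3-only gene Bcl2l11 was lower. Bax (ENSMUSG00000003873, chromosome 7, 45461697 to 45466898, minus strand) encodes a protein that forms pores in the outer mitochondrial membrane. It measured 12.4, 11.4 and 13.4 FPKM in the Ctrl hearts, against 30.3, 20.4 and 23.7 FPKM in the cKO hearts. The lowest cKO heart stood well above the highest Ctrl heart. The mean rose from 12.4 ± 0.986 to 24.8 ± 5.05 FPKM, 2.00 times, a log2 fold change of 0.93 (limma, SE 0.144, adjusted p 0.00427), the smallest adjusted p of the 9 genes. Bak1, which encodes the other main effector BAK and was not among the 9, rose alongside it, from 5.97 ± 0.461 to 12.1 ± 1.18 FPKM (log2 change 0.91, SE 0.0939, adjusted p 0.00148). The related Bok was at 2.83 ± 0.762 and 3.73 ± 0.275 FPKM, which did not pass (adjusted p 0.134, and 0.0444 without Ctrl replicate 1). The gene Ggnbp1 spans the whole of Bak1 on the opposite strand and was itself at a mean of 2.96 FPKM in Ctrl and 1.84 FPKM in cKO.

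Bbc3 (ENSMUSG00000002083, chromosome 7, 16308393 to 16318205, plus strand) encodes PUMA, a BH3-only protein induced by p53. It measured 1.46, 1.92 and 2.14 FPKM in the Ctrl hearts (59, 85 and 110 reads) against 3.48, 3.23 and 3.13 FPKM in the cKO hearts (125, 160 and 167 reads). The groups did not overlap, and the cKO hearts differed little among themselves. The mean rose 1.78 times, a log2 fold change of 0.60 (limma, SE 0.106, adjusted p 0.00685).

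Bcl2l11 (ENSMUSG00000027381, chromosome 2, 128126038 to 128162547, plus strand) encodes BIM, a BH3-only protein regulated among others by FOXO factors and kinase signalling. It measured 1.69, 1.16 and 2.62 FPKM in the Ctrl hearts, against 0.751, 0.672 and 0.941 FPKM in the cKO hearts. All cKO hearts lay below all Ctrl hearts, and the Ctrl hearts were the more variable group. The mean was 1.82 ± 0.736 FPKM in Ctrl and 0.788 ± 0.138 FPKM in cKO, a log2 fold change of -0.63 (limma, SE 0.184, adjusted p 0.0379). The log2 fold change was -1.06 with a pseudocount of 0.1 and -1.13 with voom on the recovered reads. The call was lost in 7 of 14 alternatives. Among them were leaving out Ctrl replicate 1 or 3 or cKO replicate 1, 2 or 3 (limma adjusted p 0.0844, 0.0680, 0.0926, 0.0871 and 0.0624). The others were no filter (0.102) and scaling to the assigned reads without mtDNA-encoded genes (0.0520). Bcl2l11 lies on the chromosome of the deleted gene, 519 kb from Mrps5, and whether the modified locus bears on its level was not tested.

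The ratio of Bbc3 to Bcl2l11 was 0.861, 1.66 and 0.819 in Ctrl and 4.63, 4.80 and 3.32 in cKO. Its groups could not overlap, because neither gene overlapped and they moved in opposite directions. Among the other BH3-only genes 1 of 4 tested was higher and 1 was lower (against 16.3% and 17% of all genes). That is too few genes to describe the group. Hrk and Pmaip1 (NOXA) were too low to test. Bmf fell from 1.51 ± 0.353 to 0.752 ± 0.223 FPKM (limma log2 change -0.52, adjusted p 0.0285), a call lost in 5 of 14 alternatives (no filter, and without Ctrl replicate 1 or 3 or cKO replicate 2 or 3). Bid was at 0.267 ± 0.0924 FPKM in Ctrl and 0.830 ± 0.219 FPKM in cKO (log2 change 0.53, adjusted p 0.0142), and it reached the filter only through its cKO level. Without Ctrl replicate 3 Bid did not pass (adjusted p 0.0516), and without cKO replicate 2 its mean was below the filter and it was not tested. Bad (8.03 ± 0.339 and 9.04 ± 2.01 FPKM) and Bik (2.17 ± 0.286 and 1.98 ± 0.127 FPKM) did not pass (adjusted p 0.497 and 0.494). Bad overlaps Gpr137 and Bid overlaps Bcl2l13, each on the opposite strand, and counting by strand was not stated.

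The survival genes did not move as a block. Bcl2 rose, Bcl2l1 was scattered, and Mcl1 did not pass the threshold. Bcl2 (ENSMUSG00000057329, chromosome 1, 106538178 to 106714274, minus strand) measured 0.928, 0.987 and 0.808 FPKM in the Ctrl hearts (162, 188 and 179 reads) against 1.80, 2.47 and 1.77 FPKM in the cKO hearts (279, 529 and 407 reads). All cKO hearts were above all Ctrl hearts. The mean rose 2.22 times, from 0.908 ± 0.0912 to 2.01 ± 0.399 FPKM, while the log2 fold change on FPKM + 1 was 0.65 (SE 0.110, limma adjusted p 0.00591). With a pseudocount of 0.1 it was 1.06, and with voom on the recovered reads 1.18.

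Bcl2l1 (ENSMUSG00000007659, chromosome 2, 152780668 to 152831728, minus strand) encodes BCL-xL and, by splicing, the death-promoting BCL-xS, which a value per gene does not separate. It measured 16.4, 19.05 and 18.0 FPKM in the Ctrl hearts, against 35.1, 12.5 and 19.5 FPKM in the cKO hearts. The cKO hearts held both the highest and the lowest value of all 6, with an SD of 11.6 FPKM against 1.36 FPKM in Ctrl. The log2 fold change of 0.20 had an SE of 0.322 (limma adjusted p 0.665), and it was -0.17 without cKO replicate 1 (adjusted p 0.520) and 0.54 without cKO replicate 2 (0.127).

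Mcl1 (ENSMUSG00000038612, chromosome 3, 95658788 to 95663176, plus strand) was by mean level the most abundant of the 9 genes in both groups, with 73.1, 75.2 and 77.7 FPKM in the Ctrl hearts, against 71.1, 54.9 and 69.9 FPKM in the cKO hearts. In FPKM each cKO heart was below the lowest Ctrl heart. This depends on the library size used: relative to assigned reads, cKO replicate 1 (4115 of 15989322) lay above Ctrl replicate 2 (5347 of 22772851). The log2 fold change of -0.21 had an SE of 0.111 (limma adjusted p 0.183), which did not pass in the main comparison or in any of the 14 alternatives. Of the other survival members, Bcl2l2 (BCL-w) was at 12.7 ± 0.877 and 14.2 ± 1.13 FPKM (adjusted p 0.241), and Bcl2a1a, Bcl2a1b, Bcl2a1d and Bcl2l10 were below the filter. The 3 Bcl2a1 genes are near-identical copies, so reads may be shared among them.

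Set on 1 scale of FPKM, which divides by gene length, the order of the 9 levels in Ctrl was Mcl1, Cdkn1a, Bcl2l1, Bax, Mdm2, Trp53, Bbc3, Bcl2l11 and Bcl2. The length is 1 value per gene (1576 bases for Bax, 9157 for Bcl2) and need not be that of the transcripts expressed. Comparisons of level between genes depend on it. The ranges of Cdkn1a and Bcl2l1, of Bax and Mdm2, and of Bbc3 and Bcl2l11 overlapped. In cKO the order was Mcl1, Cdkn1a, Bax, Bcl2l1, Mdm2, Trp53, Bbc3, Bcl2 and Bcl2l11. There the ranges of Mcl1 and Cdkn1a, of Bax and Bcl2l1, of Bcl2l1 and Mdm2, and of Trp53 and Bbc3 overlapped. Bcl2, the lowest of the 9 in Ctrl, and Bcl2l11 exchanged places.

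Ratios of a death gene to a survival gene depended on the survival gene chosen, and they are given as descriptions with no test. Bax to Bcl2, a ratio often quoted, was 13.4, 11.5 and 16.5 in Ctrl and 16.8, 8.25 and 13.4 in cKO, and the groups overlapped, both genes being higher in cKO. Bax to Mcl1 was 0.1698, 0.151 and 0.172 in Ctrl and 0.426, 0.372 and 0.339 in cKO. These groups could not overlap, since every cKO heart was above all Ctrl hearts for Bax and below them for Mcl1. Bax to Bcl2l1 was 0.759, 0.597 and 0.743 in Ctrl and 0.864, 1.64 and 1.21 in cKO, with no overlap. Bcl2, Bcl2l1 and Mcl1 together summed to 94.0 ± 3.23 FPKM in Ctrl and 89.7 ± 19.2 FPKM in cKO, and Mcl1 made up 80.1% and 73.7% of that sum on average. A ratio of transcripts is not a ratio of proteins.

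**Figure D3:**
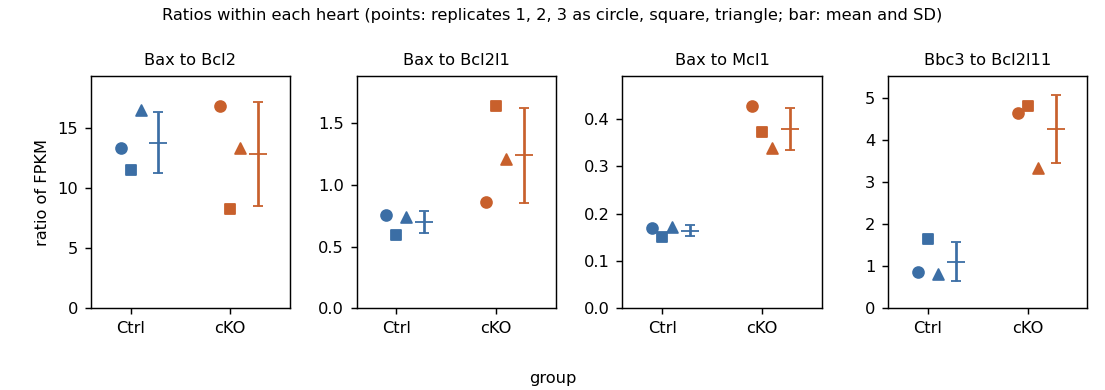
Ratios of FPKM values in every heart, Ctrl beside cKO, with the mean and SD (n = 3) beside the points and each panel on its own linear axis from 0. Bax to Mcl1 separates the groups (0.151 to 0.172 against 0.339 to 0.426) and Bax to Bcl2 does not (11.5 to 16.5 against 8.25 to 16.8). The separation of Bax to Mcl1 and of Bbc3 to Bcl2l11 follows from the single genes, which did not overlap and moved in opposite directions.

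A wider list of 42 known p53 target genes was split. Of the 38 tested, 12 were higher, 8 were lower and 18 did not pass (52.6% called, against 33.3% of all genes), with a median log2 fold change of 0.03 against -0.02 for all genes tested. With a heart left out, the counts ran from 7 higher (without Ctrl replicate 3) to 12, and from 3 lower (without Ctrl replicate 3) to 7. Without Ctrl replicate 3, 1396 of all 12957 genes tested were higher and 1432 lower. Without a filter on low values the targets numbered 9 higher and 4 lower, and 1598 and 1681 of all 26855 genes tested. Phlda3, a p53 target that restrains AKT signalling, measured 7.74, 8.17 and 7.82 FPKM in the Ctrl hearts, against 36.5, 35.6 and 28.4 FPKM in the cKO hearts. It rose 4.23 times, a log2 fold change of 1.94 (limma, SE 0.106, adjusted p 0.000184). Gdf15, a secreted stress cytokine, measured 2.41, 0.753 and 1.34 FPKM in the Ctrl hearts, against 20.8, 129 and 56.9 FPKM in the cKO hearts (log2 change 4.51, SE 0.607, adjusted p 0.00290). Gdf15 and Sesn2 are also known to respond to signals other than p53.

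Further higher targets were the 9 genes Sesn2, Aen, Rps27l, Eda2r, Zmat3, Tigar, Fdxr, Sfn and Perp, with log2 fold changes of 0.32 to 1.39. Among them Aen, an apoptosis-enhancing nuclease, rose from 6.18 ± 0.316 to 13.2 ± 0.987 FPKM (limma adjusted p 0.000784), and Rps27l from 79.8 ± 5.93 to 136 ± 9.93 FPKM (adjusted p 0.00209). These 2 were named after their values were seen. The lower targets were Sesn1, Ccng2, Fas, Ccng1, Rrm2b, Steap3, Ercc5 and Igfbp3. Sesn1, a stress-induced regulator of mTORC1 signalling, fell from 42.6 ± 10.6 to 21.7 ± 5.82 FPKM (log2 change -0.95, adjusted p 0.0270). Ccng2, an unconventional cyclin that is also a FOXO target, fell from 5.27 ± 0.469 to 2.40 ± 0.922 FPKM (-0.92, adjusted p 0.0153). Fas, the death receptor, measured 12.2, 12.1 and 13.2 FPKM in the Ctrl hearts, against 8.23, 4.28 and 7.505 FPKM in the cKO hearts (-0.86, adjusted p 0.0184). Sesn1 and Fas each lost the call in 4 of 14 alternatives (both without Ctrl replicate 2 or 3 or a filter, Sesn1 also without cKO replicate 1 and Fas without Ctrl replicate 1), and Ccng2 in 1 (without Ctrl replicate 3).

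**Figure D4:**
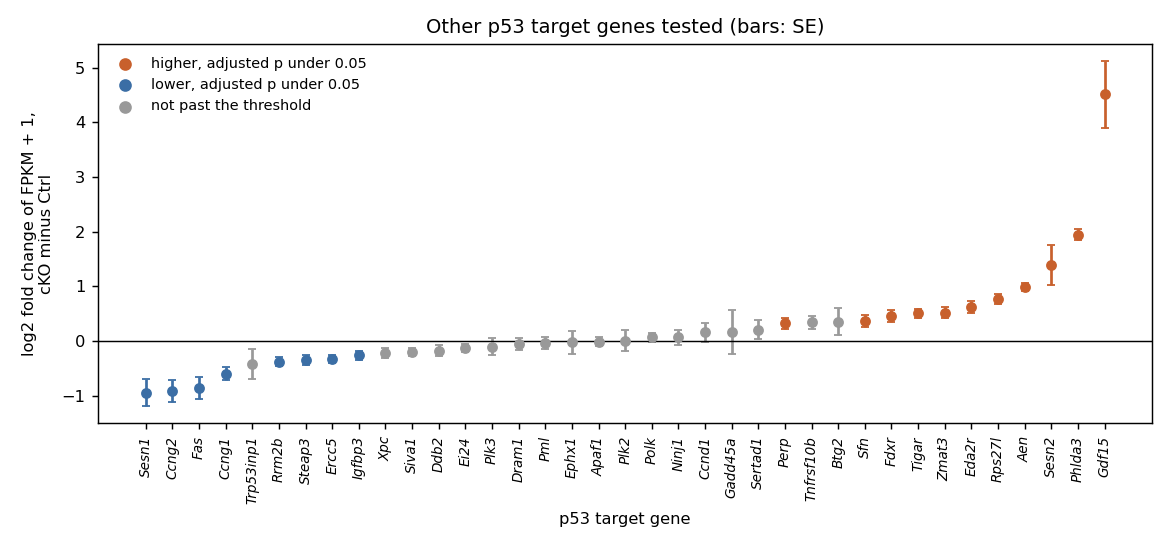
Log2 fold change of FPKM + 1 (cKO minus Ctrl) of 37 of the 38 tested genes of the p53 target list, ordered by value, with points coloured by call and error bars of 1 SE. The 11 higher genes drawn run from 0.32 (Perp) to 4.51 (Gdf15) and the 8 lower ones from -0.27 (Igfbp3) to -0.95 (Sesn1).

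Of 19 regulators of p53 tested out of 24, 2 were higher, 2 were lower and 15 did not pass. The share called was 21.1%, against 33.3% of all genes tested, a difference that was not tested, with a median log2 fold change of -0.03. The higher genes were Rpl5 and Rpl11, ribosomal proteins that can bind and inhibit MDM2, at 75.1 ± 5.88 and 98.9 ± 1.95 FPKM for Rpl5 (limma log2 change 0.40, adjusted p 0.0111) and 112 ± 7.29 and 142 ± 13.3 FPKM for Rpl11 (0.34, adjusted p 0.0328). Both have many processed copies in the genome and share reads with them to an unknown extent. Ppp1r13b, which encodes the p53 cofactor ASPP1, fell from 6.52 ± 0.664 to 3.90 ± 0.198 FPKM (-0.62, adjusted p 0.00324), and Ep300, an acetyltransferase that acts on p53 and on histones, from 4.26 ± 0.532 to 3.14 ± 0.375 FPKM (-0.34, adjusted p 0.0441). Ppp1r13b overlaps Zfyve21 on the opposite strand, which was at 21.1 and 9.96 FPKM. The calls of Ep300 and Rpl11 were lost in 8 and 6 of 14 alternatives, in both without each Ctrl replicate and without cKO replicate 1, and for Ep300 also without cKO replicate 2. The regulators numbered 1 higher without any 1 of these 4 hearts, 1 lower without any of these 5, and 4 lower without cKO replicate 3.

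The list of apoptosis execution genes also held death receptor adaptors and channels of the outer mitochondrial membrane. Of its 27 genes 26 were tested, of which 4 were higher, 4 were lower and 18 did not pass. The share called was 30.8%, near the 33.3% of all genes tested, with a median log2 fold change of -0.05. The count of higher genes was 2 without Ctrl replicate 1, Ctrl replicate 3, cKO replicate 1 or cKO replicate 2, and that of lower genes was 2 without Ctrl replicate 2 or cKO replicate 3. With scaling to the assigned reads without mtDNA-encoded genes, 6 were higher and 2 lower. Htra2, a mitochondrial protease that inactivates inhibitors of apoptosis once released, rose from 7.25 ± 0.570 to 12.5 ± 1.84 FPKM (limma log2 change 0.70, adjusted p 0.00490). Vdac3, a channel of the outer membrane, rose from 39.9 ± 1.81 to 52.5 ± 1.65 FPKM (0.39, adjusted p 0.00753), and Tradd, a death receptor adaptor, from 2.04 ± 0.332 to 3.29 ± 0.707 FPKM (0.49, adjusted p 0.0393). Vdac2 was the other higher gene. The lower genes comprised 3 that restrain caspases, namely Xiap, which fell from 4.96 ± 0.258 to 3.72 ± 0.174 FPKM (-0.34, adjusted p 0.0132), Cflar, from 3.79 ± 0.343 to 2.84 ± 0.0731 FPKM (-0.32, adjusted p 0.0220), and Birc2. Endog, a mitochondrial nuclease, fell from 36.4 ± 1.04 to 27.7 ± 0.960 FPKM (-0.38, adjusted p 0.00655). Of the 7 caspase genes in the list 0 passed in limma or with voom, and in each 1 was under an unadjusted p of 0.05, lower in cKO in limma and higher with voom. The calls of Tradd and Cflar were each lost in 6 of 14 alternatives, both without Ctrl replicate 2 or 3, cKO replicate 1 or a filter. That of Tradd was also lost without Ctrl replicate 1 or cKO replicate 2. That of Cflar was also lost without cKO replicate 3 and with scaling to the assigned reads without mtDNA-encoded genes. Htra2 overlaps Aup1 and Loxl3, and Endog overlaps Spout1, on the opposite strand.

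Of the 14 tested genes in the wider BCL2 family and its relatives outside the 9, 2 were higher (Bak1 and Bid) and 2 were lower (Bmf and Bnip3), and 8 more were too low to test. The share called was 28.6%, near the 33.3% of all genes tested, and it includes Bid, which passed the filter only through its cKO level. The count of lower genes was 0 without Ctrl replicate 3 and 1 without Ctrl replicate 1, cKO replicate 2 or cKO replicate 3, and that of higher genes was 1 without Ctrl replicate 3. Bnip3, a hypoxia-induced mitophagy receptor, measured 114, 102 and 157 FPKM in the Ctrl hearts, against 59.1, 28.4 and 61.1 FPKM in the cKO hearts. It fell by 1.36 on the log2 scale (SE 0.308, limma adjusted p 0.0160), a call lost without Ctrl replicate 3.

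The genes whose pattern over the 6 hearts was most like that of Bax were Lrrc59, Leprotl1 and Eif1a, by the root mean square difference of centred log2(FPKM + 1) values (0.0401, 0.0626 and 0.0641). Lrrc59 measured 16.5, 14.4 and 16.4 FPKM in the Ctrl hearts, against 38.1, 27.1 and 30.7 FPKM in the cKO hearts. Like Bax, all 3 were highest in cKO replicate 1 and lowest in Ctrl replicate 2, which selection by likeness over these hearts nearly ensures.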

How the data were processed

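RNA of 6 mouse hearts (3 Ctrl, 3 cKO) was measured by sequencing of poly-A selected libraries. The authors aligned paired-end reads with HISAT2 2.0.5, counted them per gene with featureCounts 1.5.0-p3 (versions from the submitters' processing notes) and deposited FPKM values of 54532 genes, 1 column per heart, with the gene length as an other, gene-level value. Use of strand and treatment of multiply aligned reads are not given in the sources used here. The notes name mm9, but of 54409 gene identifiers shared with GENCODE M21, 53499 agreed in start and end, and coordinates are therefore given as GRCm38. The labels give heart tissue and 3 replicates per group, taken 12 weeks after tamoxifen, while the study's methods describe ventricular tissue, 12-week-old littermates and a different number of replicates. The labels were followed.

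FPKM multiplied by gene length gave whole reads, within 0.1 read, for 100% of values, which supplied the depths. Reads are not independent molecules, and depth limits the low genes most. log2(FPKM + 1) was fitted for genes whose mean reached 0.5 FPKM with limma 3.58.1 in R 4.3.3 (eBayes with an intensity trend, 2 groups, no covariates, two-sided, Benjamini-Hochberg over 12944 genes, threshold 0.05). The fit was tested on simulated data with gene-wise dispersions and, separately, with the same dispersion for all genes. In the latter, false calls averaged above the nominal rate, so calls close to the threshold, such as those of Trp53 and Bcl2l11, carry more doubt than their adjusted p states. Each label is a separate heart, and p-values measure the spread between 3 hearts per group. The 9 genes and all lists were chosen with earlier results of these data known. Besides the 9 genes and Mrps5, the text names every tested gene of the small BCL2 family and CDK inhibitor lists, up to 3 higher and 3 lower genes with the largest changes and no overlap from each larger list, and the 3 genes most like Bax. Other genes past the threshold are named beside a count. A gene so selected is not reported here, though it remains in the counts. There were 14 alternatives: pseudocount 0.1, no filter, a minimum mean of 1 FPKM, 2 other scalings, eBayes without trend, voom on the recovered reads, a replicate block, and leaving out each of 6 hearts. The other scalings were by median of ratios and by assigned reads without mtDNA-encoded genes, each in place of the FPKM library size. RefSeq windows were those of GRCm38.p6.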

Additional observations from a re-analysis of the deposited data

How the results depend on the processing

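For the 9 genes, 126 comparisons with an alternative gave 13 calls lost and 1 direction turned. Cdkn1a, Bax, Bbc3 and Bcl2 kept direction and call in all 14, with log2 fold changes of 0.81 to 1.26, 0.78 to 1.06, 0.50 to 0.85 and 0.55 to 1.18. With 1 heart left out, Bcl2l1 ran from -0.17 (without cKO replicate 1) to 0.54 and Bad from -0.017 (without cKO replicate 1) to 0.27 (both without cKO replicate 2). For the 29 other genes selected by the naming rule, 404 comparisons gave 56 calls lost, 1 gained and 1 turned. Bid could be compared in 12, being below the filter at a minimum mean of 1 FPKM and without cKO replicate 2. Without a filter, 1598 of the 26855 genes tested were higher and 1681 lower. In that setting 0 of the 9 genes were lower, p53 regulators numbered 1 higher and 1 lower, p53 targets 4 lower and other BCL2 genes 1 lower. Another alternative scaled to the assigned reads without mtDNA-encoded genes. It replaced the library size used in the FPKM values as well as leaving out those genes, and these changes were not separated. With it, 2719 genes were higher and 1609 lower (2110 and 2205 in the main analysis), the median of all genes moving from -0.02 to 0.05. There 0 of the 9 genes were lower, 1 regulator was lower, and 6 execution genes were higher and 2 lower (4 and 4 in the main analysis). Median-of-ratios scaling gave 1 regulator lower, and a minimum mean of 1 FPKM 1 other BCL2 gene higher. The cause of these moves was not tested.

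With 1 heart left out, a group of 2 hearts remains and fewer calls are made among all genes. Of 12923 to 12975 genes tested, 1396 to 1977 were higher and 1423 to 2011 lower, against 2110 and 2205 of 12944 in the main fit. The 9 genes then numbered 4 to 5 higher and 0 to 1 lower, regulators 1 to 2 higher and 1 to 4 lower, p53 targets 7 to 12 higher and 3 to 7 lower, other BCL2 genes 1 to 3 higher and 0 to 2 lower, execution genes 2 to 5 higher and 2 to 4 lower, and other CDK inhibitors 0 higher and 2 lower throughout. Replicate numbers were checked for pairing, and deviations of same-numbered hearts correlated at -0.055, 0.175 and -0.015. With so few hearts this check cannot exclude a shared litter or batch, and the main fit used no pairing. With the replicate block, Trp53 did not pass (adjusted p 0.0704), 4 of the 9 genes were higher and 1 was lower, 1 regulator was higher, and 1874 genes were higher and 1982 lower among all genes. Low reads limit Bbc3, Bcl2 and Bcl2l11 most.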
